A study of Mus musculus with 18 samples.

Results

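The response of bone marrow-derived macrophages (BMDMs) to crystal-exposed renal tubular epithelial cells (TECs) was described across the transcriptome, by comparison of the COM group with the NC group. Samples were taken by their labels, 6 NC and 6 COM, 12 of the 18 samples in the series, and genes by a mean of at least 1 FPKM (fragments per kilobase of transcript, scaled to the number of mapped fragments) over these 12 samples, which kept 10900 of 25926 genes in the table. In all 12 samples, BMDMs of C57BL/6J mice, labelled with the strain C57BL/6, had been differentiated in RPMI medium with 10% FBS and M-CSF at 50 ng/mL for 7 days, with the medium changed on day 5. They lay in the upper chamber of a 6-well Transwell whose pores measured 0.4 μm, so that only soluble or very small material could pass, and TECs from wild-type mouse kidney lay in the lower chamber. NC macrophages received PBS above TECs without crystals. COM macrophages also received PBS, above TECs that had been treated with calcium oxalate monohydrate (COM) crystals at 100 μg/mL for 24 h. NC is therefore a coculture as well, and the comparison is of crystal-exposed against unexposed TECs. Whether samples came from different mice, cultures or wells is not given in the labels, so each p-value reflects variation among the libraries at hand, and that variation may be technical.

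Macrophages read damage and microbial products through surface, endosomal and cytosolic receptors, and many of these routes end in NF-kappa B and in interferon regulatory factors. Type I interferon made in this way acts back on the macrophage through its receptor and a complex of transcription factors that binds interferon-stimulated response elements in the promoters of antiviral and antigen presentation genes. Macrophages grown in M-CSF also divide, and inflammatory activation of such cells is known to be accompanied by a change in metabolism, with more glycolysis, itaconate and nitric oxide and less sterol synthesis.

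The values of replicates fell into sets within each group. Pearson correlations of log2(FPKM + 1) over the genes tested were 0.985 to 0.995 among NC-1 to NC-4 but 0.938 to 0.962 between these and NC-5 or NC-6. Among COM-1 to COM-3 they were 0.992 to 0.994 and between COM-4 and COM-5 0.995, against 0.950 to 0.952 between these sets, and COM-6 correlated with the other COM samples at 0.890 to 0.937. Correlations between NC and COM samples were 0.697 to 0.920. The median SD of a gene on the log2 scale was 0.158 in NC and 0.311 in COM, and 8407 of the 10900 genes had the larger SD in COM. Nothing in the labels accounts for these sets, and list counts below rest on all 12 samples. A count that moved by more than 1.5 times without NC-5 and NC-6, without COM-6 or without COM-4 to COM-6 is given with its value there, and not all smaller moves are. FPKM values do not hold the read depth, so no counting error could be attached to a value.

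A gene was called when its adjusted p was below 0.05 and its change at least 2-fold on the log2(FPKM + 1) scale, which understates the change of genes near 0 FPKM. Of 10900 genes, 653 (5.99%) were called higher and 1273 (11.7%) lower in COM, together 17.7%, and in 4169 (38.2%) the 6 COM and 6 NC values did not overlap. The median log2 fold change over all genes was -0.27, and list medians below are given relative to it. Counts of list members called are to be read beside the 5.99% and 11.7% of all genes. With median-of-ratios size factors, which bring that median to -0.0045, the split was 859 higher (7.88%) and 834 lower (7.65%), with quantile normalisation 810 and 863, and after rescaling to TPM 716 and 1543. Without COM-4 to COM-6 it was 588 and 818. Calls made as deposited and under all 3 scalings numbered 649 higher and 748 lower, and calls made whichever single sample of the 12 was left out 533 higher and 965 lower. As in any bulk sample, fewer cells of a type and less RNA per cell cannot be told apart.

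On the log2(FPKM + 1) scale and in the deposited values, rises were larger than falls although fewer in number. This scale holds down changes of genes near 0 FPKM in a group, so the counts by size belong to it. The gene Pimreg, at means of 13.1 FPKM in NC and 0.107 in COM, had a log2 fold change of -3.64. Apol9b, at 0.103 FPKM in NC and 23.2 in COM, had 3.99. At 4-fold or more, 254 genes were called higher and 252 lower, at 16-fold 51 and 13, at 32-fold 19 and 0, and at 64-fold 8 and 0, whereas with size factors the counts at 4-fold were 317 and 189. By the level in NC, 157 of 257 genes with a mean under 1 FPKM were called higher, which the filter favours because such genes passed only through their COM values. Genes below 1 FPKM in every COM sample, such as Ccnb1 and Plk1, passed only through NC. For genes of either kind named below, the p-value and the gap between groups are no separate evidence of the change. Of 584 genes at 100 FPKM or more in NC, 35 were called higher and 148 lower. Among genes on either side of the filter's limit, Zbtb26 had a mean of 1.00 FPKM (0.783 to 1.11 in NC and 0.871 to 1.26 in COM) and Ufsp1 a mean of 0.999 FPKM (0.775 to 1.46 and 0.184 to 1.35). Protein-coding genes made up 579 of the genes called higher and 1217 of those called lower, and gene models without an Ensembl identifier 70 and 53. The plot of change by level shows rises at every level and falls held down near 0 FPKM by the scale.

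**Figure D1:**
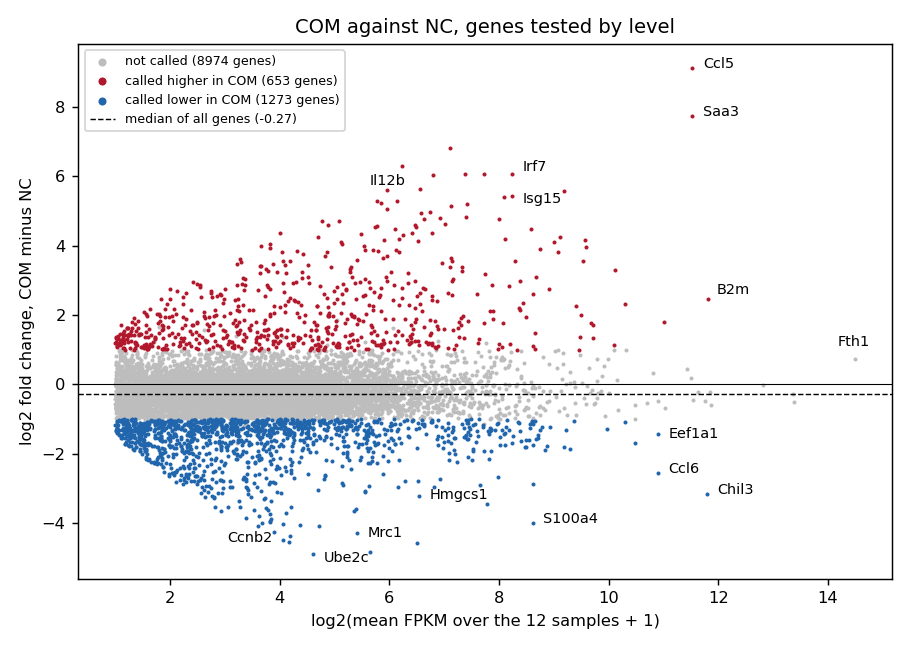
Each point is 1 of the 10900 genes tested, with log2(mean FPKM over the 12 samples + 1) on the x axis and the log2 fold change of COM minus NC, on the log2(FPKM + 1) scale, on the y axis. Red points are the 653 genes called higher, blue points the 1273 called lower, grey points the 8974 not called, and the dashed line is the median of all genes (-0.27).

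Interferon-stimulated genes had the highest median change of 52 gene lists. Of 31 antiviral effectors tested, 26 were called higher and 1 lower, and the list's median log2 fold change was 4.19 relative to all genes, and all 17 interferon-inducible GTPases were called higher (median 3.14). Values of single genes follow as the lowest, median and highest of the 6 samples of a group. Isg15, a ubiquitin-like protein attached to other proteins in antiviral defence, stood at 3.03, 14.1 and 26.1 FPKM in NC and 311, 341 and 1143 in COM (log2 fold change 5.44 ± 0.54 (SE), adjusted p = 5.4e-06). Ifit3, a partner of the RNA-binding Ifit proteins, stood at 0.572, 5.51 and 10.05 FPKM in NC and 142, 409 and 719.99 in COM (log2 fold change 6.06 ± 0.60 (SE), adjusted p = 5.4e-06). In both, the groups were far apart, and the COM values themselves spread over a several-fold range. Rsad2, which encodes viperin, an enzyme that makes a chain-terminating nucleotide, had 0.574, 6.59 and 14.4 FPKM in NC and 55.5, 505 and 1099 in COM (log2 fold change 5.398 ± 0.94 (SE), adjusted p = 4.6e-04). Its COM samples fell into a low set, COM-1 to COM-3 at 57.5, 55.6 and 55.5 FPKM, and a high set, COM-4 to COM-6 at 1011, 952 and 1099. Oasl1, an inhibitor of Irf7 translation, stood at 0.338, 2.38 and 3.82 FPKM in NC and 47.6, 113 and 247 in COM (log2 fold change 5.28 ± 0.50 (SE), adjusted p = 3.4e-06), again without overlap. Without NC-5 and NC-6 2 were called lower. With all samples the list's fall was Ifitm6, at 1.0001 to 5.605 FPKM in NC and 0 to 2.49 in COM (log2 fold change -1.09, adjusted p = 0.035), whose groups overlapped and whose call was lost with size factors (log2 fold change -0.86, adjusted p = 0.12) and when any single one of NC-1 to NC-4 or COM-1 to COM-3 was left out. A member that did not pass was Samhd1, a nucleotide hydrolase, at means of 104 FPKM in NC and 171 in COM.

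Promoters are printed for 3 of these genes because they hold the response element named above, and for 3 mitotic genes further on because they hold another pair of motifs. Each is the RefSeq sequence on GRCm38.p6 from 250 bases before to 50 after the start, 300 bases on the strand of the gene, with capitals for the letters GAAANNGAAA on either strand. Isg15 lies at chr4:156200769-156201068 on the minus strand and Rsad2 at chr12:26456403-26456702 on the minus strand, while Ifit3 lies at chr19:34583279-34583578 on the plus strand.
Isg15: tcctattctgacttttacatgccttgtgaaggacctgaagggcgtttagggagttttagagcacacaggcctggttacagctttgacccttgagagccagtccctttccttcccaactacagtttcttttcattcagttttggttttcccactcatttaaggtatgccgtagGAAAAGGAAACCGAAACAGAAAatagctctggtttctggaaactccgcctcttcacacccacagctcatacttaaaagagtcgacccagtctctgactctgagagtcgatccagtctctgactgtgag
Ifit3: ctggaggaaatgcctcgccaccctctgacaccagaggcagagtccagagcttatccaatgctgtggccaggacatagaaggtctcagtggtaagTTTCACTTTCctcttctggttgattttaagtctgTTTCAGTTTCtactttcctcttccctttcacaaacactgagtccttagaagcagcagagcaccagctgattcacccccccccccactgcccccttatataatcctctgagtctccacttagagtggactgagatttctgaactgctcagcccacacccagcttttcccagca
Rsad2: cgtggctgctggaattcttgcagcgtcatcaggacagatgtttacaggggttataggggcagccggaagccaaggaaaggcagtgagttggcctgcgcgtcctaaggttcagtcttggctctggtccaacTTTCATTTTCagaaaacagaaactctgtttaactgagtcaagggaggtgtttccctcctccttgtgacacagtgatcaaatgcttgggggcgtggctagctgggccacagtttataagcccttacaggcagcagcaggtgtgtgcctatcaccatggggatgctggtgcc
The Isg15 promoter held 3 overlapping matches, which began 78, 72 and 66 bases before the start, that of Ifit3 held 2, at 156 and 122 bases, and that of Rsad2 held 1, at 120 bases.

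A RefSeq gene was counted once, and as holding a motif where any of its promoters did on either strand. Over all genes tested with a promoter of this kind, 341 of 8455 (4.03%) held the response element, beside 3.99% of the 27025 genes with a promoter in the RefSeq table. Among genes called higher the share was 82 of 445 (18.4%), among genes called lower 34 of 989 (3.44%) and among those not called 225 of 7029 (3.20%). By size of change it was 10.3% at a log2 fold change of 1 to 2, 25.3% at 2 to 3, 32.6% at 3 to 4 and 42.9% (18 of 42) at 4 and over. Of the 25 largest rises 23 had a promoter in the table, and 11 of these held the element. An NF-kappa B site was found in 16.6% of promoters of genes called higher, 13.8% of those called lower and 12.2% of all genes tested. A match is a match of letters in this window and was not tested as a binding site, and neighbouring paralogs such as the Ifit genes may share sequence.

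**Figure D2:**
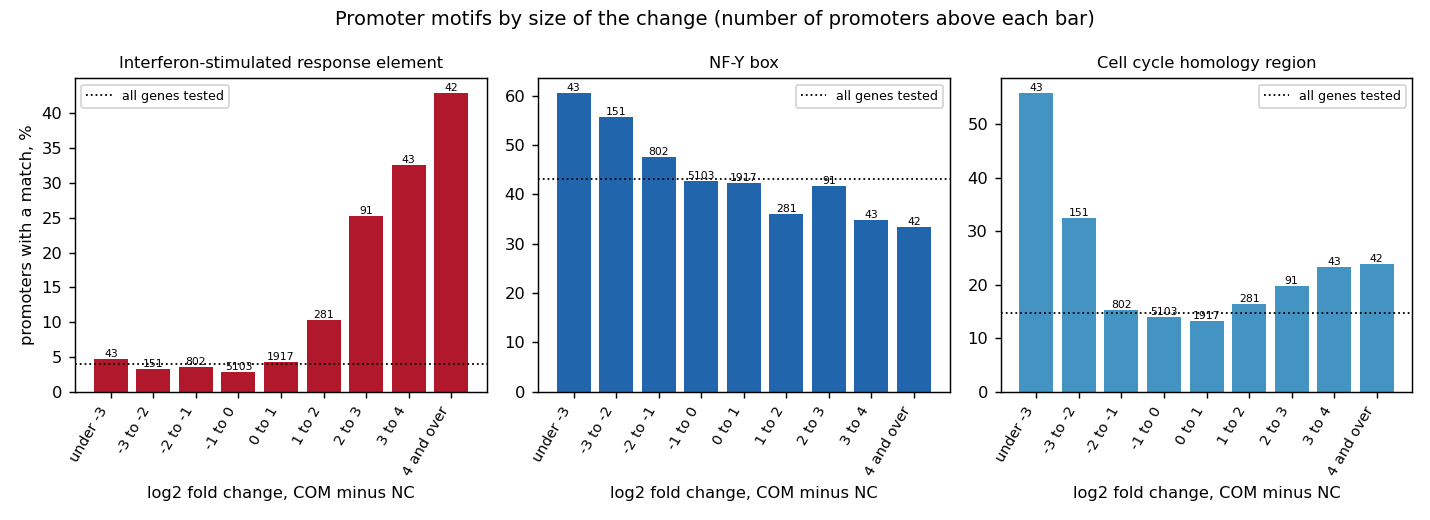
Bars give the percentage of promoters (300 bases) that hold a motif on either strand, by bins of the log2 fold change of COM minus NC on the x axis, with the number of promoters above each bar and the share over all genes tested as a dotted line. The interferon-stimulated response element climbs to 42.9% in the bin of 4 and over, while the NF-Y box and the cell cycle homology region reach 60.5% and 55.8% in the bin under -3.

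Part of the interferon signalling genes rose. Of 21 receptors, kinases and factors, 10 were called higher, 0 lower and 11 did not pass (median 1.11 relative to all genes). Irf7, the factor that amplifies interferon transcription, stood at 3.29, 9.37 and 13.7 FPKM in NC and 449, 490.3 and 854 in COM (log2 fold change 6.05 ± 0.32 (SE), adjusted p = 3.6e-08). Usp18, which removes Isg15 from proteins and blocks the receptor Ifnar2, stood at 0.822, 8.21 and 11.6 FPKM in NC and 55.9, 131 and 307 in COM (log2 fold change 4.38 ± 0.60 (SE), adjusted p = 7.3e-05). Both were apart between the groups. Irf3, which responds first to nucleic acid sensing, did not pass, with means of 15.1 FPKM in NC and 12.5 in COM (log2 fold change -0.32, adjusted p = 0.23). Ifngr1, the ligand-binding chain of the interferon-gamma receptor, had a log2 fold change of -0.81, short of 2-fold. Transcripts of Ifnb1, the interferon itself, were below the filter, at means of 0.041 FPKM in NC and 0.446 in COM.

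Sensors of cytosolic nucleic acid followed the same direction, with 7 of 14 called higher and 0 lower (median 1.83). They included the Ifi200 family members Ifi204, at 4.16, 24.8 and 29.9 FPKM in NC and 96.1, 206 and 613 in COM (log2 fold change 3.64 ± 0.62 (SE), adjusted p = 3.7e-04), and Ifi203, at 2.704, 10.3 and 12.99 FPKM in NC and 25.4, 87.6 and 293 in COM (log2 fold change 3.100 ± 0.65 (SE), adjusted p = 0.0016), whose close copies on chromosome 1 may share reads. The DNA sensor gene Cgas, at means of 4.88 FPKM in NC and 6.15 in COM, and its adaptor Tmem173, which encodes STING, at 14.96 FPKM in NC and 10.1 in COM, did not pass. Among GTPases, which attack the vacuoles of microbes, Gbp6 stood at 1.02, 2.48 and 4.17 FPKM in NC and 27.5, 99.6 and 203 in COM (log2 fold change 4.57 ± 0.53 (SE), adjusted p = 1.9e-05) and Gbp2 at 8.79, 32.9 and 46.98 FPKM in NC and 262, 513 and 812 in COM (log2 fold change 4.19 ± 0.48 (SE), adjusted p = 1.6e-05). Neither overlapped between groups. The lowest 2 values of Gbp2 in NC were those of NC-5 and NC-6, at 10.5 and 8.79 FPKM.

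Class I antigen presentation genes rose, while most class II genes did not pass. Of 22 class I genes, 19 were called higher and 0 lower (median 2.16), whereas of 14 class II genes 0 were called higher and 1 lower (median -0.24). B2m, the light chain of every class I molecule, stood at 796, 1096 and 1215 FPKM in NC and 3459.9, 5862 and 9861 in COM (log2 fold change 2.46 ± 0.29 (SE), adjusted p = 2.0e-05), and was among the 25 most abundant genes of COM but not of NC. H2-K1, a classical heavy chain, stood at 308, 393 and 443 FPKM in NC and 1309, 1406 and 3764 in COM (log2 fold change 2.33 ± 0.29 (SE), adjusted p = 3.6e-05). H2-T22, a non-classical heavy chain, stood at 23.4, 25.7 and 27.9 FPKM in NC and 152, 219 and 528 in COM (log2 fold change 3.26 ± 0.31 (SE), adjusted p = 3.6e-06). Heavy chain genes are near-identical in parts, and reads may be split between them, but B2m is not one of them. Nlrc5, the transactivator of class I genes, stood at 1.07, 2.58 and 3.34 FPKM in NC and 8.395, 11.7 and 22.7 in COM (log2 fold change 2.16 ± 0.27 (SE), adjusted p = 3.9e-05). H2-DMa, which helps to load peptide on class II, was the class II gene called, at 27.2, 73.4 and 93.8 FPKM in NC and 10.1, 22.4 and 26.2 in COM (log2 fold change -1.41 ± 0.34 (SE), adjusted p = 0.0036). Cd74, the invariant chain, did not pass, at 222, 2056 and 2339 FPKM in NC and 328, 711 and 1238 in COM (log2 fold change -0.73 ± 0.66 (SE), adjusted p = 0.36). Its values of NC-5 and NC-6 (323 and 222 FPKM) were the lowest of all 12, and without both samples 7 class II genes were called lower, Cd74 among them (log2 fold change -1.73, adjusted p = 0.0067).

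Costimulatory and checkpoint ligands were called higher in 8 of 18 and lower in 1 (median 1.14). Cd40, the receptor for T cell help, stood at 0.286, 3.74 and 8.105 FPKM in NC and 24.7, 37.5 and 88.9 in COM (log2 fold change 3.71 ± 0.49 (SE), adjusted p = 5.5e-05), and Cd274, which encodes the checkpoint ligand PD-L1, at 59.9, 79.7 and 104 FPKM in NC and 199, 368 and 625 in COM (log2 fold change 2.11 ± 0.33 (SE), adjusted p = 2.0e-04). Both were apart between the groups. Cd86, a ligand of CD28, did not pass (log2 fold change 0.66, adjusted p = 0.17). Havcr2, which encodes TIM-3, fell, at 13.1, 14.8 and 26.8 FPKM in NC and 3.599, 4.41 and 6.92 in COM (log2 fold change -1.69 ± 0.22 (SE), adjusted p = 4.0e-05).

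Chemokines and cytokines moved in both directions, with more rises. Of 20 chemokine ligands tested, 7 were called higher and 2 lower (median 1.499), with 1 lower with size factors or without COM-6. Ccl22, a ligand of CCR4, stood at 3.67, 31.8 and 59.3 FPKM in NC and 147, 249 and 356 in COM (log2 fold change 3.57 ± 0.61 (SE), adjusted p = 4.0e-04). Ccl6, among the most abundant transcripts of NC, stood at 2778, 2939.8 and 4241 FPKM in NC and 434, 568 and 609 in COM (log2 fold change -2.56 ± 0.15 (SE), adjusted p = 5.6e-08), so that these 2 ligands moved apart. Ccl17 was also called lower (log2 fold change -1.45, adjusted p = 0.045). That call was lost with size factors (log2 fold change -1.17, adjusted p = 0.10) and without COM-6 (log2 fold change -1.34, adjusted p = 0.078). Cxcl3, a neutrophil attractant, was called higher although 1 NC sample reached above the lowest COM value, at 3.57, 106 and 333 FPKM in NC and 313, 913 and 1654 in COM (log2 fold change 3.83 ± 0.99 (SE), adjusted p = 0.006). Chemotactic receptors were called higher in 3 of 11 and lower in 3, the latter 1 with size factors. Ccr7, which guides cells to lymph nodes, stood at 0.824, 11.5 and 20.3 FPKM in NC and 61.2, 130.04 and 214 in COM (log2 fold change 3.83 ± 0.61 (SE), adjusted p = 2.4e-04), and Ccr2, the receptor that brings monocytes into tissue, at 4.003, 6.55 and 16.9 FPKM in NC and 0.075, 0.195 and 0.264 in COM (log2 fold change -2.79 ± 0.28 (SE), adjusted p = 6.2e-06). Each was separate between groups, in opposite directions.

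Among 23 cytokines and growth factors, 12 were called higher and 2 lower (median 1.29), with 6 higher without COM-4 to COM-6, 8 higher without NC-5 and NC-6, and 1 lower with size factors or without COM-6. Il12b and Il12a encode the chains of interleukin-12. Il12b stood at 0.142, 3.48 and 11.5 FPKM in NC and 158, 186 and 215 in COM (log2 fold change 5.65 ± 0.50 (SE), adjusted p = 2.1e-06), and Il12a at 0, 0.558 and 2.06 FPKM in NC and 22.4, 25.7 and 28.5 in COM (log2 fold change 4.06 ± 0.24 (SE), adjusted p = 7.4e-08). COM samples held nearly the same level of each, and the spread lay in NC, where NC-5 and NC-6 were lowest. Il1b stood at 4.18, 89.8 and 209 FPKM in NC and 455, 548 and 609 in COM (log2 fold change 3.55 ± 0.80 (SE), adjusted p = 0.0025). Tnf, by contrast, did not pass, at 23.5, 136 and 305 FPKM in NC and 89.4, 149 and 348 in COM (log2 fold change 0.77 ± 0.63 (SE), adjusted p = 0.31). Il18, an inflammasome substrate, had 7.66 to 14.5 FPKM in NC and 2.57 to 8.75 in COM (log2 fold change -1.11, adjusted p = 0.0013), overlapping, and its fall did not reach 2-fold with size factors (log2 fold change -0.84, adjusted p = 0.022), with quantile normalisation or without COM-2. Cytokine receptors were called higher in 2 (8.33%) and lower in 4 (16.7%) of 24, beside 5.99% and 11.7% of all genes. With size factors 5 were called higher and 2 lower, and without COM-4 to COM-6 2 were called lower. Il15ra, which presents interleukin-15 to other cells, rose, at 3.38, 3.93 and 4.41 FPKM in NC and 9.26, 19.2 and 38.9 in COM (log2 fold change 2.03 ± 0.33 (SE), adjusted p = 2.6e-04), and Il18rap, a chain of the interleukin-18 receptor, fell, at 2.301, 3.18 and 3.64 FPKM in NC and 0.062, 0.155 and 0.285 in COM (log2 fold change -1.802 ± 0.11 (SE), adjusted p = 9.8e-08).

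Receptors and transducers upstream of these genes were called in part, and their counts stand beside 5.99% of all genes called higher. Of 24 Toll-like receptors and adaptors, 5 (20.8%) were called higher (median 0.59), and 3 were without NC-5 and NC-6 or without COM-4 to COM-6. Cd14, the coreceptor for lipopolysaccharide, stood at 19.7, 73.4 and 116 FPKM in NC and 226, 431 and 503 in COM (log2 fold change 2.86 ± 0.43 (SE), adjusted p = 1.4e-04), while Tlr4 itself stayed short of 2-fold, at means of 19.6 FPKM in NC and 15.9 in COM (log2 fold change -0.299, adjusted p = 0.043). Of 25 NF-kappa B subunits, kinases and inhibitors 3 were called higher (Nfkbib, Tnfaip3 and Traf1), 1 without NC-5 and NC-6 and 5 with size factors. Traf1, an adaptor of TNF receptors, stood at 0.696, 11.2 and 21.9 FPKM in NC and 36.8, 60.5 and 76.2 in COM (log2 fold change 2.91 ± 0.59 (SE), adjusted p = 0.0013). The subunit genes Nfkb1 (log2 fold change -0.27, adjusted p = 0.12) and Nfkb2 (log2 fold change 0.58, adjusted p = 0.14) did not pass. Feedback inhibitors were called higher in 8 of 21 (38.1%) and lower in 2, with 4 higher without NC-5 and NC-6 and 4 without COM-4 to COM-6. Socs1, an inhibitor of Janus kinases, stood at 0.348, 2.22 and 3.95 FPKM in NC and 4.60, 11.3 and 26.01 in COM (log2 fold change 2.26 ± 0.40 (SE), adjusted p = 5.3e-04), and Nr4a1, an early-response nuclear receptor, at 4.04, 5.01 and 5.72 FPKM in NC and 0.797, 1.56 and 2.11 in COM (log2 fold change -1.27 ± 0.14 (SE), adjusted p = 1.0e-05), a call lost with quantile normalisation (log2 fold change -0.93, adjusted p = 3.2e-05).

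Genes of the inflammasome and of lytic death split. Of 20, 7 were called higher and 5 lower (median 0.45), with 3 lower with size factors. Mefv, which encodes pyrin, stood at 0.123, 4.29 and 5.02 FPKM in NC and 27.7, 28.97 and 32.2 in COM (log2 fold change 3.203 ± 0.43 (SE), adjusted p = 6.8e-05). Mlkl, the pore former of necroptosis, stood at 9.62, 11.5 and 12.4 FPKM in NC and 29.9, 52.1 and 98.4 in COM (log2 fold change 2.06 ± 0.29 (SE), adjusted p = 8.1e-05), and its kinase Ripk3 at 22.7, 29.04 and 32.1 FPKM in NC and 3.84, 8.68 and 11.3 in COM (log2 fold change -1.69 ± 0.21 (SE), adjusted p = 3.1e-05), so that this pair moved in opposite directions with no overlap in either. Among 16 genes of the BCL-2 family 1 (6.25%) was called higher and 4 (25%) lower, beside 5.99% and 11.7% of all genes. The counts were 3 higher with size factors, 2 higher without COM-6, none higher without NC-5 and NC-6 and 2 lower without COM-4 to COM-6. Bok, a promoter of mitochondrial death, had 2.59, 3.29 and 23.3 FPKM in NC and 0, 0 and 0.506 in COM (log2 fold change -2.76 ± 0.49 (SE), adjusted p = 5.0e-04), and Pmaip1, which encodes the sensitiser NOXA, 13.6, 18.8 and 21.6 FPKM in NC and 4.63, 5.88 and 7.97 in COM (log2 fold change -1.42 ± 0.15 (SE), adjusted p = 7.6e-06). In both, every COM value lay below every NC value.

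Secreted acute-phase and antibacterial proteins were called higher in 7 of 15 and lower in 2 (median 1.03). Lcn2, which binds bacterial iron carriers, stood at 9.03, 25.8 and 39.1 FPKM in NC and 640.3, 1127 and 1672 in COM (log2 fold change 5.57 ± 0.39 (SE), adjusted p = 2.9e-07). Orm1, an acute-phase glycoprotein, stood at 0.116, 0.495 and 0.779 FPKM in NC and 20.1, 27.2 and 42.8 in COM (log2 fold change 4.35 ± 0.19 (SE), adjusted p = 1.3e-08). It passed the filter only through its COM values, so its p-value is no separate evidence of the rise. Cfb, factor B of the alternative complement pathway, stood at 36.3, 108 and 196 FPKM in NC and 765, 1562 and 1580.5 in COM (log2 fold change 3.95 ± 0.41 (SE), adjusted p = 7.9e-06) and entered the 25 most abundant genes of COM. Procr, the endothelial protein C receptor gene, stood at 9.65, 19.4 and 35.4 FPKM in NC and 147, 190.2 and 328 in COM (log2 fold change 3.51 ± 0.30 (SE), adjusted p = 1.7e-06). These 4 genes had no overlap between groups. In the opposite direction, Thbd, which encodes thrombomodulin, stood at 1.15, 2.22 and 4.305 FPKM in NC and 0.1304, 0.247 and 0.361 in COM (log2 fold change -1.41 ± 0.22 (SE), adjusted p = 2.1e-04). Of 19 complement and coagulation genes 5 were called higher and 4 lower, 2 lower without COM-4 to COM-6.

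Genes around arginine moved in both directions. Of 12 genes for arginine, nitric oxide and itaconate metabolism, 5 were called higher and 2 lower (median 0.06), with 3 higher without NC-5 and NC-6 and 1 lower with size factors or without COM-4 to COM-6. Slc7a2, the arginine transporter of activated macrophages, stood at 50.2, 67.9 and 106 FPKM in NC and 406, 466 and 662 in COM (log2 fold change 2.83 ± 0.18 (SE), adjusted p = 1.5e-07). Nos2, the inducible nitric oxide synthase, stood at 0.044, 2.14 and 3.55 FPKM in NC and 4.42, 87.7 and 259.9 in COM (log2 fold change 3.84 ± 1.07 (SE), adjusted p = 0.0092). Its COM values formed 2 sets, 4.67, 5.203 and 4.42 FPKM in COM-1 to COM-3 and 259.9, 201 and 170.2 in COM-4 to COM-6, and the call was lost without NC-5 and NC-6 (log2 fold change 3.29, adjusted p = 0.054). Odc1, the first enzyme from ornithine to polyamines, fell, at 22.2, 24.004 and 44.98 FPKM in NC and 8.82, 9.72 and 14.7 in COM (log2 fold change -1.37 ± 0.20 (SE), adjusted p = 1.1e-04). Arg1, the arginase of alternative activation, stood at means of 1.89 FPKM in NC and 0.671 in COM. These means lay more than 2-fold apart, but on the log2(FPKM + 1) scale, which understates changes at such low levels, the fall stayed short of 2-fold.

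A few antioxidant and iron genes changed by a large factor. Of 26 Nrf2 targets, 3 (11.5%) were called higher and 2 (7.69%) lower (median 0.35), beside 5.99% and 11.7% of all genes. With size factors 6 were called higher. Prdx1, a peroxidase, stood at 659, 959 and 1236 FPKM in NC and 2518, 3227 and 3631 in COM (log2 fold change 1.79 ± 0.18 (SE), adjusted p = 5.8e-06), and Sod2, the mitochondrial superoxide dismutase, at 37.8, 73.7 and 99.7 FPKM in NC and 232, 244 and 291 in COM (log2 fold change 1.97 ± 0.24 (SE), adjusted p = 3.2e-05). The metallothionein genes Mt1 and Mt2, which bind zinc and copper, fell. Mt1 had 534, 578 and 1025 FPKM in NC and 75.001, 92.04 and 109.97 in COM (log2 fold change -2.87 ± 0.18 (SE), adjusted p = 1.5e-07). Hmox1, which opens the haem ring, had 249 to 397 FPKM in NC and 333 to 1299.8 in COM and did not reach 2-fold (log2 fold change 0.97, adjusted p = 0.034). Fth1, the ferritin heavy chain, was the most abundant transcript of both groups, at 15867, 17827 and 18193 FPKM in NC and 23189.8, 30295 and 30646 in COM, apart but short of 2-fold (log2 fold change 0.73 ± 0.15 (SE), adjusted p = 0.0012). Of 15 iron genes 4 were called higher and 3 lower, with 1 lower without COM-4 to COM-6. Tfrc, the transferrin receptor, fell, at 86.2, 95.2 and 125 FPKM in NC and 17.7, 33.7 and 49.3 in COM (log2 fold change -1.71 ± 0.28 (SE), adjusted p = 2.9e-04), and Slc11a1, a metal exporter of phagosomes, rose, at 56.5, 73.7 and 87.98 FPKM in NC and 132, 247 and 265 in COM (log2 fold change 1.64 ± 0.18 (SE), adjusted p = 1.4e-05).

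Cell cycle genes had the lowest median change of the 52 lists. Of 40 genes of mitosis and G2/M, 38 were called lower and 0 higher (median -2.701 relative to all genes). The other two were Ube2s (log2 fold change -0.81, adjusted p = 0.0072) and Pttg1 (log2 fold change 0.202, adjusted p = 0.31), which encodes securin. Ccnb1, the cyclin that drives entry into mitosis, stood at 17.4, 22.05 and 42.2 FPKM in NC and 0.141, 0.321 and 0.731 in COM (log2 fold change -4.27 ± 0.22 (SE), adjusted p = 3.6e-08). Plk1, a mitotic kinase, stood at 15.2, 18.05 and 34.4 FPKM in NC and 0, 0.277 and 0.692 in COM (log2 fold change -4.09 ± 0.22 (SE), adjusted p = 4.3e-08), and Cdc20, the activator of the anaphase-promoting complex, at 18.4, 23.04 and 35.6 FPKM in NC and 0.211, 0.706 and 1.25 in COM (log2 fold change -3.97 ± 0.20 (SE), adjusted p = 2.2e-08). Top2a, the topoisomerase that untangles chromosomes, stood at 26.1, 32.7 and 55.3 FPKM in NC and 0.5399, 1.39 and 2.32 in COM (log2 fold change -4.05 ± 0.24 (SE), adjusted p = 8.9e-08). In all 4 the COM values were a small fraction of the lowest NC value. Within NC, NC-5 and NC-6 held the highest values of these genes, such as 34.4 and 31.7 FPKM of Plk1 against 15.2 to 20.2 in NC-1 to NC-4.

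Promoters of 3 falling genes follow, chosen from the 25 largest falls because each holds both an NF-Y box (CCAAT) and a cell cycle homology region (TTTGAA). The latter is the element through which a repressor complex and its activating counterpart act on genes of G2 and mitosis. Capitals mark matches of either motif on either strand in 300 bases of RefSeq sequence on GRCm38.p6. All 3 lie on the minus strand, Ccnb2 at chr9:70421505-70421804, Cdc20 at chr4:118437294-118437593 and Top2a at chr11:99024140-99024439.
Ccnb2: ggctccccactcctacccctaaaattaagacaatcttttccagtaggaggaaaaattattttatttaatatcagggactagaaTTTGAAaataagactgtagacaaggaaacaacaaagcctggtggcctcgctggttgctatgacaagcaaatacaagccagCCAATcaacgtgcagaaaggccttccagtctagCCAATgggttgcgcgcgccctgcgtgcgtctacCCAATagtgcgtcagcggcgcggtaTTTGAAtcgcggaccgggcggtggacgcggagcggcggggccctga
Cdc20: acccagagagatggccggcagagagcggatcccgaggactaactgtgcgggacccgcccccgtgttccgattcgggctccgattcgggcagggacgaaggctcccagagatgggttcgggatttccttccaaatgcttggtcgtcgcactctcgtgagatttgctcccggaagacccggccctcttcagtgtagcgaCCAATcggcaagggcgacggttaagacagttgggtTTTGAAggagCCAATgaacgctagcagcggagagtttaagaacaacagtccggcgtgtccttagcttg
Top2a: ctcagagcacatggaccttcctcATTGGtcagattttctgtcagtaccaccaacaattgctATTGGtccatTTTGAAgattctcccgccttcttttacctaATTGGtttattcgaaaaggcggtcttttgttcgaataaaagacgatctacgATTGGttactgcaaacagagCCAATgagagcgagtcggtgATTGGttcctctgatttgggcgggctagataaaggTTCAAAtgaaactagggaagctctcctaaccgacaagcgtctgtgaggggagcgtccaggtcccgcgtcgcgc
Ccnb2, a second mitotic cyclin, held 3 NF-Y boxes, 87, 54 and 21 bases before the start, and cell cycle homology regions 167 bases before and 4 bases after it. Cdc20 held boxes at 53 and 8 bases and a region at 18 bases before the start. Top2a held 6 boxes, spaced between 227 and 58 bases, and regions at 179 and 23 bases.

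Among the 100 largest falls, 62.2% of promoters held an NF-Y box, against 43.0% over all genes tested and 37.1% of genes called higher. A cell cycle homology region was found in 45.1% of them, against 14.6% over all genes tested and 25% of the 100 largest rises. Over all genes called lower, 49.5% held the box and 19.6% the region. The latter share lay near the 18.2% of genes called higher and the 20.2% of all genes with a promoter in the RefSeq table. In the bin of changes under -3 the shares were 60.5% and 55.8% (26 and 24 of 43). Of the 25 largest falls, 19 had a promoter in the table, 14 with the box and 13 with the region. An E2F site (GGCGGGAA) was found in 4.65% of genes called lower and 4.87% of all genes tested. These short motifs occur often by their letters alone, and the share over all genes tested stands beside each for that reason.

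DNA replication genes fell, and some repair genes with them. Of 46 replication genes, 32 were called lower and 0 higher (median -0.92), with 21 lower without NC-5 and NC-6. Rrm2, the regulated subunit of ribonucleotide reductase, stood at 13.8, 17.6 and 39.9 FPKM in NC and 0.325, 0.882 and 2.07 in COM (log2 fold change -3.55 ± 0.31 (SE), adjusted p = 1.7e-06), and Uhrf1, which carries methylation to new DNA strands, at 8.63, 10.8 and 23.1 FPKM in NC and 0.528, 0.992 and 1.86 in COM (log2 fold change -2.79 ± 0.26 (SE), adjusted p = 3.0e-06). E2f1, an S phase factor, did not pass, at means of 11.8 FPKM in NC and 16.5 in COM. Of 27 repair genes 6 were called lower, and 3 without NC-5 and NC-6. Myc, the growth factor-induced transcription factor, stood at 9.56, 10.5 and 14.7 FPKM in NC and 0.128, 0.297 and 0.531 in COM (log2 fold change -3.204 ± 0.12 (SE), adjusted p = 2.3e-09), without overlap. Cdkn2c, an inhibitor of cyclin D kinases, also fell, at 7.22, 9.23 and 15.03 FPKM in NC and 0.1298, 0.363 and 0.958 in COM (log2 fold change -2.94 ± 0.19 (SE), adjusted p = 1.2e-07), while Cdkn1a, which encodes p21, did not pass (log2 fold change 0.24, adjusted p = 0.41).

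Ribosomal protein genes fell as a group in the deposited values. Of 75 cytosolic ribosomal protein genes, 63 were called lower and 0 higher (median -1.03), 37 with size factors, 50 without COM-6 and 28 without COM-4 to COM-6. Their summed FPKM had lowest, median and highest values of 23527, 24819 and 25391 in NC and 5319, 11352 and 13836 in COM, a ratio of means of 0.438 (exact permutation test, two-sided p = 0.00216, the smallest that 6 against 6 allows; 0.0041 adjusted over 17 single values). Rpl10a stood at 344, 349 and 368 FPKM in NC and 24.2, 98.9 and 149 in COM (log2 fold change -2.15 ± 0.38 (SE), adjusted p = 5.3e-04), lowest in COM-6. Rpl24 lay against the group, at means of 310.4 FPKM in NC and 367 in COM (log2 fold change 0.18, adjusted p = 0.48). None of 37 mitochondrial ribosomal protein genes was called in either direction by limma (median -0.09), although 13 had an adjusted p below 0.05 and a lower value, 20 an unadjusted p below 0.05 and a lower value and 0 a higher one. Of 31 translation factors 7 were called lower, with 2 by size factors, 2 without COM-6 and 1 without COM-4 to COM-6. Eef1b2, an exchange factor of elongation, stood at 72.6, 78.1 and 80.9 FPKM in NC and 14.5, 25.5 and 31.5 in COM (log2 fold change -1.65 ± 0.16 (SE), adjusted p = 5.1e-06). Splicing factors were called lower in 5 of 30 (16.7%, beside 11.7% of all genes), led by Snrpg, a core protein of spliceosomal RNPs (log2 fold change -1.72, adjusted p = 8.5e-05). With size factors 2 were called lower, and 3 without COM-6, without NC-5 and NC-6 or without COM-4 to COM-6.

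The FPKM sum was more concentrated in COM. The 50 most abundant genes of each sample held 28.6%, 29.2% and 33.4% in NC and 31.4%, 34.3% and 37.7% in COM of its FPKM sum (lowest, median and highest sample, difference of means 4.06 percentage points, exact permutation test, two-sided p = 0.03, adjusted p = 0.047), and the groups overlapped. The number of genes at 10 FPKM or more was 5436, 5486 and 5652 in NC and 4255, 4946 and 5219 in COM (exact p = 0.00216), and the number at 1000 FPKM or more 29, 31 and 32 in NC and 40, 42 and 44 in COM (exact p = 0.00216). Neither count overlapped between groups. The number at 100 FPKM or more did overlap, at 572, 586 and 617 in NC and 495, 600.5 and 618 in COM (exact p = 0.95). Genes called higher made up 2.61%, 4.45% and 5.47% in NC and 17.1%, 21.6% and 26.9% in COM of the FPKM sum, which their choice fixes and no test was made of. The plot of sample values shows these quantities for each sample.

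**Figure D3:**
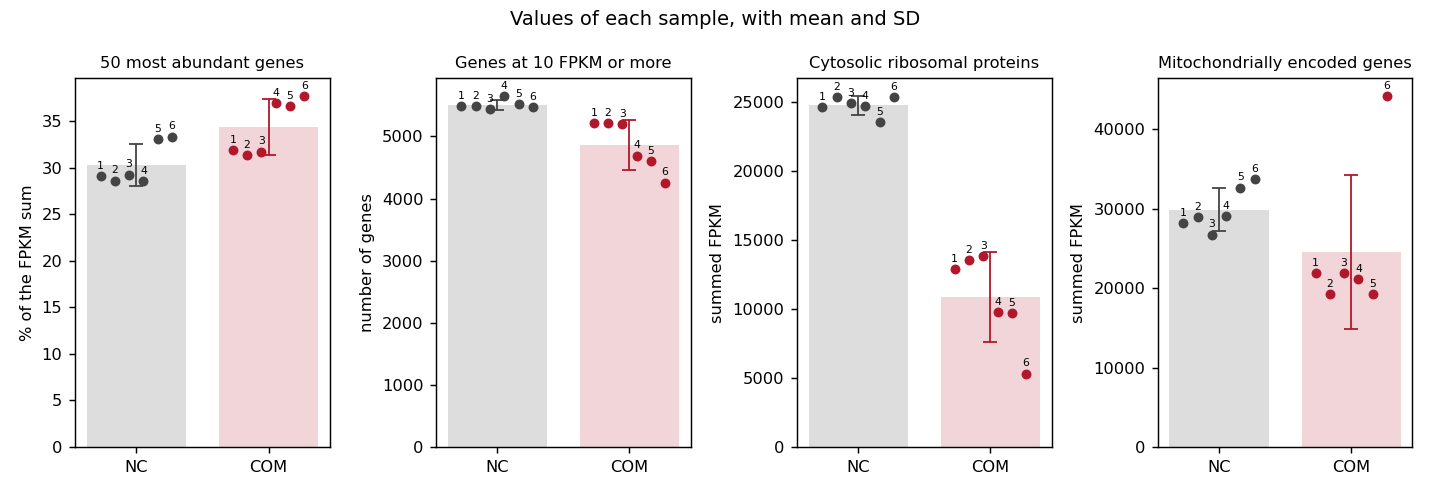
Bars are means of 6 samples, error bars the SD, and points the samples with their replicate numbers. From left to right the panels give the percentage of the FPKM sum in the 50 most abundant genes, the number of genes at 10 FPKM or more, the summed FPKM of 75 cytosolic ribosomal protein genes and that of 13 mitochondrially encoded genes, where COM-6 stands at 44206 against 19223 to 21877 in the other COM samples.

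Mitochondrial and central carbon genes changed in part. The 13 mitochondrially encoded genes had a summed FPKM of 26747, 29005 and 33697 in NC and 19223, 21474 and 44206 in COM (exact permutation test, p = 0.23), and COM-6 alone lay above the lowest NC sample. Of 44 nuclear respiratory chain genes 2 (4.55%) were called lower, a share below the 11.7% of all genes. None was called lower with size factors, without COM-6, without NC-5 and NC-6 or without COM-4 to COM-6. TCA cycle genes were called lower in 6 of 26, with 2 without NC-5 and NC-6 and 1 without COM-4 to COM-6. Idh1, the cytosolic isocitrate dehydrogenase, stood at 91.02, 113 and 143 FPKM in NC and 20.6, 47.6 and 70.1 in COM (log2 fold change -1.502 ± 0.33 (SE), adjusted p = 0.0021), a call lost without COM-4 to COM-6 (log2 fold change -0.73, adjusted p = 0.0017). Sdha, the catalytic subunit of succinate dehydrogenase, did not reach 2-fold, at 71.4, 74.7 and 92.4 FPKM in NC and 45.7, 58.5 and 65.4 in COM (log2 fold change -0.47 ± 0.12 (SE), adjusted p = 0.0051). Of 26 glycolysis genes 3 (11.5%) were called higher and 2 (7.69%) lower, beside 5.99% and 11.7% of all genes, with 1 lower with size factors or without NC-5 and NC-6. Pfkfb3, which makes the activator of phosphofructokinase, stood at 5.59, 7.35 and 8.28 FPKM in NC and 41.2, 55.9 and 76.2 in COM (log2 fold change 2.82 ± 0.17 (SE), adjusted p = 9.1e-08), and Aldoc, an aldolase, at 38.6, 43.1 and 49.05 FPKM in NC and 1.92, 11.96 and 20.7 in COM (log2 fold change -2.19 ± 0.46 (SE), adjusted p = 0.0017). Rpia was the 1 gene called of 8 in the pentose phosphate pathway (log2 fold change -1.47, adjusted p = 1.1e-04), a share of 12.5% beside 11.7% of all genes called lower.

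Sterol and fatty acid synthesis fell together. Of 32 genes, 23 were called lower and 0 higher (median -1.49), and 21 with size factors. Hmgcs1, the synthase at the head of the mevalonate pathway, stood at 134, 168 and 199 FPKM in NC and 9.19, 19.002 and 29.7 in COM (log2 fold change -3.21 ± 0.30 (SE), adjusted p = 3.2e-06). Sqle, which oxidises squalene, stood at 71.8, 81.7 and 95.1 FPKM in NC and 3.25, 10.3 and 19.04 in COM (log2 fold change -3.11 ± 0.40 (SE), adjusted p = 4.2e-05). Both were separate between groups, and COM-4 to COM-6 lay below COM-1 to COM-3 in each. Srebf2, the factor that drives the pathway and named here after its values were seen, was called lower as well (log2 fold change -2.06, adjusted p = 3.3e-04), whereas Srebf1, its counterpart for fatty acids, was not (log2 fold change -0.19, adjusted p = 0.63).

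Lipid handling genes moved in both directions. Of 28 such genes, 5 were called higher and 8 lower. Abca1, the cholesterol exporter, stood at 2.005, 10.2 and 12.04 FPKM in NC and 46.2, 69.7 and 92.6 in COM (log2 fold change 3.11 ± 0.39 (SE), adjusted p = 3.6e-05), and Dgat2, the last enzyme of triglyceride synthesis, at 1.93, 2.11 and 3.13 FPKM in NC and 13.1, 24.7 and 27.5 in COM (log2 fold change 2.804 ± 0.17 (SE), adjusted p = 8.2e-08). Mgll, a monoglyceride lipase, stood at 30.5, 37.3 and 44.6 FPKM in NC and 3.11, 5.51 and 9.803 in COM (log2 fold change -2.58 ± 0.20 (SE), adjusted p = 7.1e-07). Acsl1, which activates fatty acids, rose, at 40.6, 75.5 and 145 FPKM in NC and 548, 587 and 621 in COM (log2 fold change 2.98 ± 0.28 (SE), adjusted p = 3.0e-06), and was the 1 gene called higher of 22 in the fatty acid oxidation list, where 6 were called lower and 2 with size factors, and 3 without NC-5 and NC-6 or without COM-4 to COM-6. Etfb, an electron carrier of that pathway, stood at 63.3, 70.5 and 118 FPKM in NC and 4.74, 20.5 and 25.6 in COM (log2 fold change -2.22 ± 0.34 (SE), adjusted p = 1.8e-04).

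Prostaglandin and leukotriene genes moved in both directions. Ptges, the inducible prostaglandin E synthase, stood at 4.84, 8.05 and 14.04 FPKM in NC and 39.7, 78.5 and 80.9 in COM (log2 fold change 2.93 ± 0.24 (SE), adjusted p = 1.1e-06), while Ptgs1, the constitutive cyclooxygenase, stood at 46.9, 56.6 and 68.6 FPKM in NC and 4.28, 16.4 and 25.8 in COM (log2 fold change -2.08 ± 0.40 (SE), adjusted p = 9.4e-04). Alox5, the first enzyme of leukotriene synthesis, stood at 61.1, 75.3 and 85.3 FPKM in NC and 1.26, 7.57 and 15.8 in COM (log2 fold change -3.601 ± 0.54 (SE), adjusted p = 1.6e-04), with COM-1 to COM-3 above COM-4 to COM-6. Of 16 members 2 were called higher and 5 lower (median -0.55), with 3 lower without COM-4 to COM-6.

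Of 22 genes of alternative activation 9 were called lower and 2 higher (median -0.42). Without NC-5 and NC-6 the counts were 6 and 1, without COM-6 8 and 1 and without COM-4 to COM-6 7 and 3. Mrc1, the mannose receptor, stood at 53.8, 64.5 and 122 FPKM in NC and 1.17, 3.32 and 5.18 in COM (log2 fold change -4.29 ± 0.33 (SE), adjusted p = 6.1e-07). Pparg, a nuclear receptor of this state, stood at 7.57, 9.31 and 22.8 FPKM in NC and 0.186, 0.672 and 1.07 in COM (log2 fold change -2.997 ± 0.28 (SE), adjusted p = 3.0e-06). Chil3, a secreted chitinase-like protein, stood at 836, 1034 and 18218 FPKM in NC and 108, 365 and 587 in COM (log2 fold change -3.14 ± 0.89 (SE), adjusted p = 0.0099), where NC-5 and NC-6 held 18218 and 18157 FPKM, and the call was lost without COM-4 to COM-6 (log2 fold change -2.15, adjusted p = 0.14). Stab1, a scavenger receptor usually placed in the same state, rose, at 0.234, 2.21 and 3.02 FPKM in NC and 5.68, 10.1 and 13.7 in COM (log2 fold change 2.13 ± 0.32 (SE), adjusted p = 1.3e-04). Of 32 lineage transcription factors 1 was called higher and 10 lower. With size factors, without COM-6 or without COM-4 to COM-6 2 were called higher. Batf2, an interferon-responsive factor, was the rise with all samples, at 0.0998, 0.885 and 1.45 FPKM in NC and 4.56, 10.9 and 34.4 in COM (log2 fold change 2.87 ± 0.49 (SE), adjusted p = 3.8e-04), and Klf4, at 11.2, 18.8 and 41.6 FPKM in NC and 3.07, 3.92 and 4.601 in COM (log2 fold change -2.15 ± 0.30 (SE), adjusted p = 8.2e-05), was among the falls. The plot of 12 genes by sample shows the sets of replicates within each group.

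**Figure D4:**
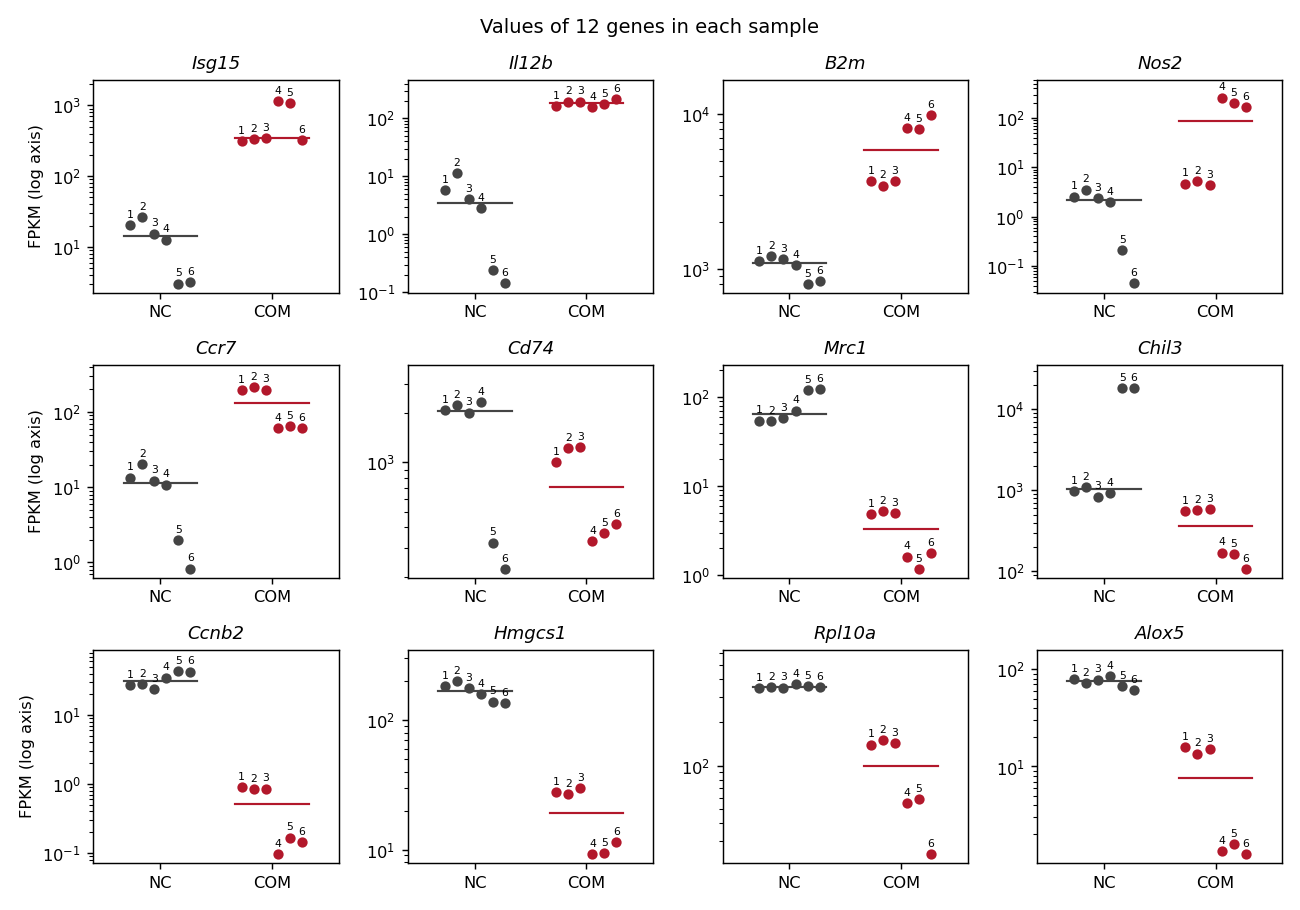
Each panel gives the FPKM of a gene on a log axis in 6 NC (grey) and 6 COM (red) samples, numbered by replicate, with the group median as a line. In Isg15, Il12b, B2m, Nos2, Ccr7, Mrc1, Chil3, Ccnb2, Hmgcs1, Rpl10a and Alox5 the groups do not overlap, whereas in Cd74 they do, and in Nos2 COM-1 to COM-3 lie far below COM-4 to COM-6.

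Surface, matrix and lysosomal genes moved singly. Of 30 phagocytosis and Fc receptor genes 7 (23.3%) were called higher and 5 (16.7%) lower, beside 5.99% and 11.7% of all genes. Clec4e, a receptor for microbial glycolipids and dead cells, stood at 87.9, 237 and 427 FPKM in NC and 1687, 1837 and 2816 in COM (log2 fold change 3.304 ± 0.37 (SE), adjusted p = 1.6e-05). Fcgr1, the high-affinity IgG receptor, stood at 6.93, 8.16 and 9.17 FPKM in NC and 46.6, 61.7 and 149 in COM (log2 fold change 3.05 ± 0.29 (SE), adjusted p = 3.5e-06), and Cd300a, an inhibitory lipid receptor, at 28.2, 39.2 and 67.4 FPKM in NC and 2.54, 4.697 and 5.32 in COM (log2 fold change -3.05 ± 0.22 (SE), adjusted p = 4.1e-07). Lysosomal genes were called lower in 4 of 40, a share of 10% that lies below the 11.7% of all genes, among them Atp6v0d2, a proton pump subunit, at 188, 206 and 360.3 FPKM in NC and 34.3, 55.9 and 67.8 in COM (log2 fold change -2.24 ± 0.22 (SE), adjusted p = 5.7e-06), and Tfeb, a regulator of lysosomal genes (log2 fold change -1.602, adjusted p = 9.5e-05). With size factors 5 were called higher and 3 lower, and without COM-6 or COM-4 to COM-6 1 was called higher. Fscn1, an actin bundler, stood at 1.22, 10.2 and 18.3 FPKM in NC and 56.8, 102 and 166 in COM (log2 fold change 3.65 ± 0.52 (SE), adjusted p = 1.1e-04), and Cd9, a tetraspanin, at 756, 781 and 1371 FPKM in NC and 115, 294 and 389 in COM (log2 fold change -1.87 ± 0.31 (SE), adjusted p = 3.3e-04). Actin and adhesion genes were called higher in 6 (18.2%) and lower in 5 (15.2%) of 33. The latter count was 2 with size factors, 2 without COM-6, 3 without NC-5, COM-5 or both NC-5 and NC-6, and 1 without COM-4 to COM-6. Mmp2, a gelatinase, rose (log2 fold change 2.07, adjusted p = 7.1e-05) and Mmp19 fell (log2 fold change -1.997, adjusted p = 7.1e-07), among 4 called higher and 5 lower of 19, where 2 were called higher when any single one of NC-5, NC-6 and COM-1 to COM-3, or both NC-5 and NC-6, were left out. The osteoclast list gave 4 higher and 3 lower of 13, with Acp5, the tartrate-resistant phosphatase, at 18.4, 24.002 and 27.1 FPKM in NC and 27.9, 161 and 288 in COM (log2 fold change 2.31 ± 0.51 (SE), adjusted p = 0.0023), and Ctsk, cathepsin K, falling (log2 fold change -1.75, adjusted p = 2.3e-04).

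Among purine genes, Adora2a, the adenosine receptor that raises cAMP, stood at 0.8198, 4.27 and 7.79 FPKM in NC and 17.3, 34.2 and 38.6 in COM (log2 fold change 2.93 ± 0.38 (SE), adjusted p = 5.3e-05), while Adk, which clears adenosine, stood at 11.01, 12.7 and 18.4 FPKM in NC and 2.07, 2.51 and 3.76 in COM (log2 fold change -1.99 ± 0.16 (SE), adjusted p = 7.2e-07), in a list with 2 called higher and 2 lower of 13, where 1 was called higher without COM-6, without NC-5 and NC-6 or without COM-4 to COM-6. The purine shares, 15.4% each way, stand beside 5.99% of all genes called higher and 11.7% lower. Of 18 sirtuin and NAD genes 3 (16.7%) were called higher and 1 (5.56%) lower, the latter lost without NC-5 and NC-6. Cd38, an NAD-consuming enzyme of the surface, stood at 2.13, 7.57 and 13.01 FPKM in NC and 105, 146 and 196 in COM (log2 fold change 4.32 ± 0.36 (SE), adjusted p = 1.3e-06), and Parp14, an ADP-ribosyltransferase, at 12.1, 26.1 and 36.2 FPKM in NC and 109, 157 and 271 in COM (log2 fold change 2.77 ± 0.32 (SE), adjusted p = 1.8e-05). Sirt1, a deacetylase that uses NAD, did not pass, at 5.59, 6.83 and 7.13 FPKM in NC and 2.69, 4.14 and 7.34 in COM (log2 fold change -0.53 ± 0.16 (SE), adjusted p = 0.014), and its groups overlapped. Of 29 histone methylation genes 1 (3.45%, beside 11.7% of all genes) was called lower, Suv39h1 (log2 fold change -1.003, adjusted p = 5.5e-04). Suv39h1 lost its call with size factors and when any single one of NC-4 to NC-6 or COM-4 to COM-6, both NC-5 and NC-6 or all of COM-4 to COM-6 were left out.

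Stress and quality control genes were called in both directions, beside 5.99% of all genes called higher and 11.7% lower. Calls numbered 2 higher and 4 lower of 22 (9.09% and 18.2%) for the ATF4 response, 0 and 1 of 23 for endoplasmic reticulum stress, 2 and 1 of 21 for heat shock, 0 and 1 of 23 for autophagy, and 1 and 4 of 21 for p53 targets. With size factors the ATF4 list had 2 lower, endoplasmic reticulum stress 3 higher and heat shock 4 higher. Without COM-4 to COM-6 the ATF4 list had 1 lower and endoplasmic reticulum stress 2 higher, and without NC-5 and NC-6 the ATF4 list had 1 higher and 2 lower. The autophagy call, Atg7, was lost with size factors, without COM-6 and without COM-4 to COM-6. The rise among p53 targets, Mdm2, was lost without COM-6 and without COM-4 to COM-6, and 2 rose with size factors. Without COM-4 to COM-6 heat shock had 1 higher and the endoplasmic reticulum fall was lost, as was the heat shock fall without NC-5 and NC-6. Psat1, an enzyme of serine synthesis in the ATF4 list, fell by a wide margin, at 9.18, 12.6 and 30.02 FPKM in NC and 1.15, 1.604 and 3.12 in COM (log2 fold change -2.57 ± 0.29 (SE), adjusted p = 1.7e-05). Hspa5, the chaperone BiP, had means of 165 FPKM in NC and 289 in COM and stayed short of 2-fold (log2 fold change 0.81, adjusted p = 5.4e-05). The plot of gene lists sets all 52 lists side by side with the share over all genes. Of these lists 31 had a median above that of all genes and 21 below it.

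**Figure D5:**
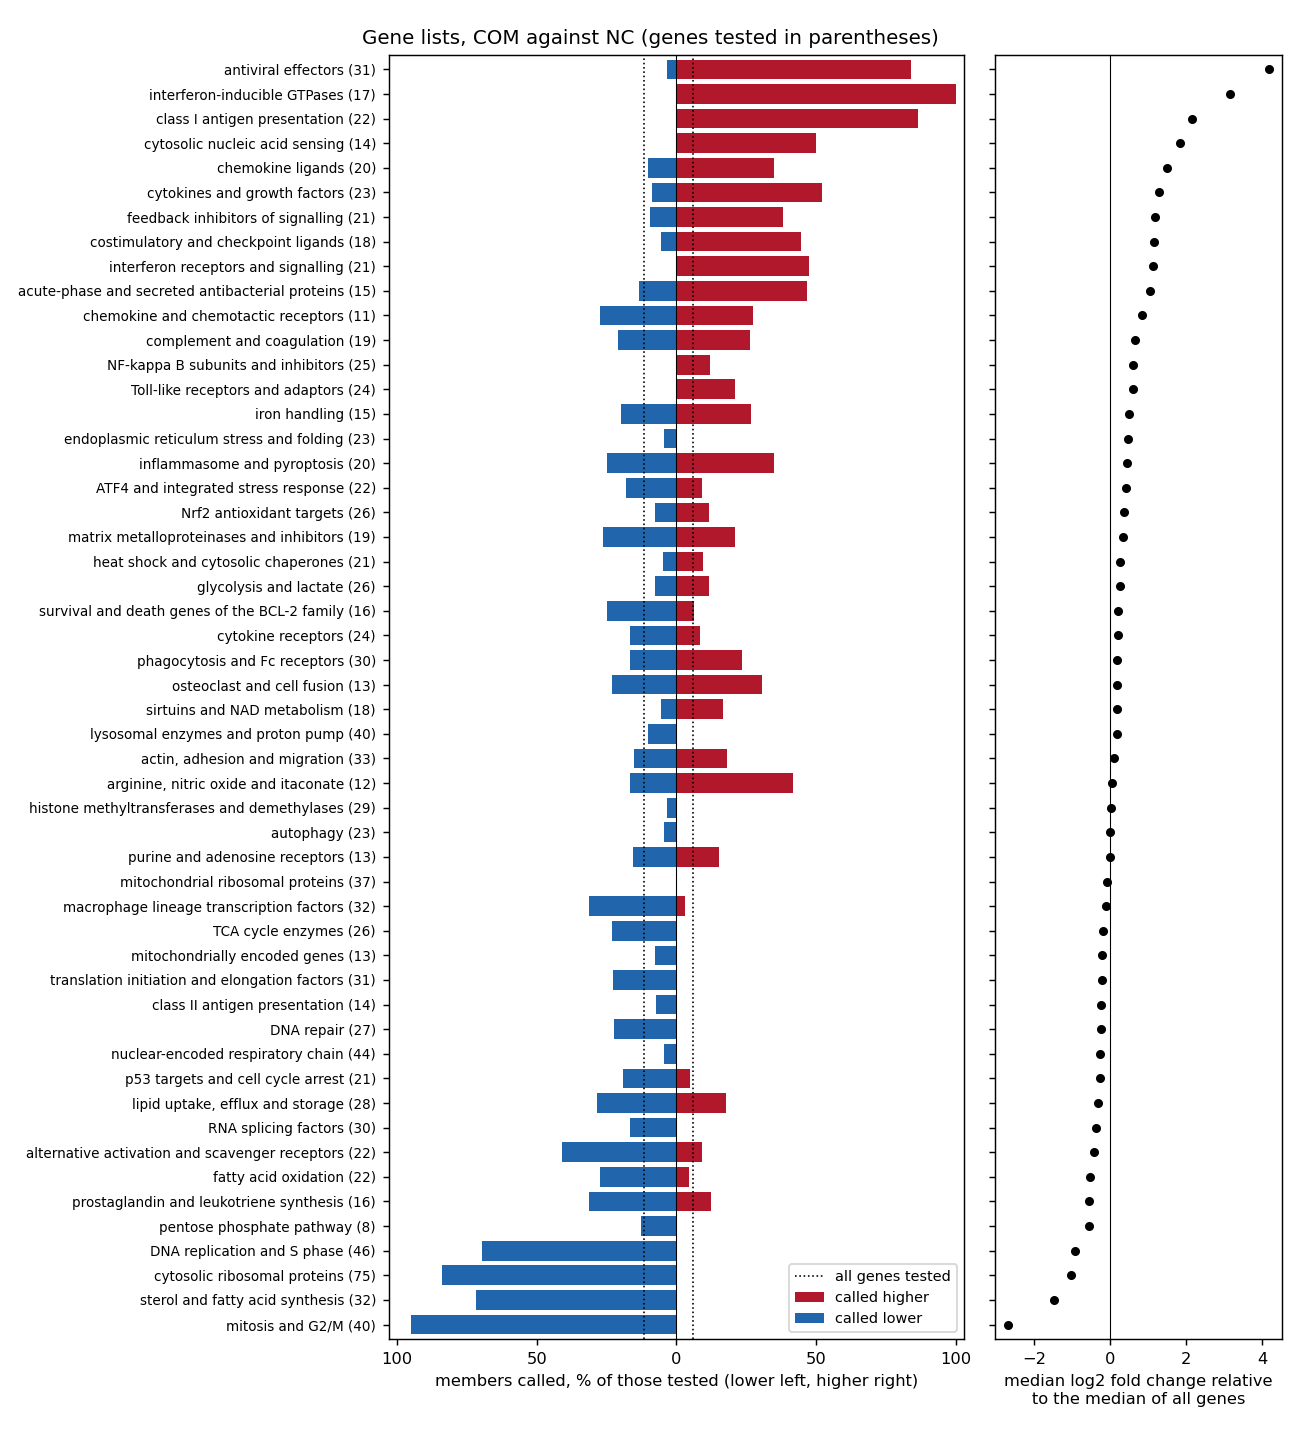
For each of the gene lists with the number of genes tested in parentheses, bars on the left panel give the percentage of members called higher in COM (red, to the right) and called lower (blue, to the left), with the shares over all genes tested (5.99% and 11.7%) as dotted lines. Points on the right panel give the median log2 fold change relative to the median of all genes, from 4.19 for antiviral effectors to -2.70 for mitosis and G2/M.

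Genes that were near 0 in a group and present in the other were few. Below 0.5 FPKM in all 6 NC samples and at 5 FPKM or more in all 6 COM samples were 3 genes, Ifi213, Ifi44 and Apol9b, of which Ifi213 stood at 0, 0.3696 and 0.453 FPKM in NC and 8.04, 46.5 and 143 in COM (log2 fold change 4.595 ± 0.70 (SE), adjusted p = 1.7e-04). The reverse held for 5 genes, Pimreg, Cdkn3, Nuf2, Neil3 and Kif2c. Nuf2, a kinetochore protein, stood at 7.34, 10.1 and 17.7 FPKM in NC and 0.101, 0.272 and 0.442 in COM (log2 fold change -3.26 ± 0.20 (SE), adjusted p = 8.9e-08). Genes of both kinds were chosen by this separation and passed the filter only through the group where they were high. Their p-values are therefore no separate evidence of it. The most abundant genes overlapped more, since 15 of the top 25 by mean FPKM were the same in NC and COM. The light chain of ferritin, Ftl1, and lysozyme, Lyz2, followed Fth1 in NC, at means of 12031 and 11610.1 FPKM, and stood at 9362 and 9517 in COM without passing the test.

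Some neighbouring genes carried the same call. In the gene order of GENCODE M21, 17 runs of at least 4 adjacent tested genes, 82 genes in all, were each called higher throughout, and 10 runs were called lower. The longest rising run held 7 Ms4a genes on chromosome 19, followed by 6 genes around H2-T22 and H2-T23 on chromosome 17 and 6 genes of the Gbp cluster on chromosome 5. Runs of 5 were found in the Ifi200 cluster, which gave a pair of them, in the Sp100, Slfn, Phf11, Ly6 and Ifit clusters, and a run of 4 joined Psmb9, Tap1, Psmb8 and Tap2, the class I peptide transporter and proteasome genes. Among falling runs, the longest held 7 genes of the Stfa (stefin A) cluster on chromosome 16, with BC100530 at 7.21, 22.2 and 37.5 FPKM in NC and 0.066, 0.396 and 1.53 in COM (log2 fold change -3.61 ± 0.38 (SE), adjusted p = 9.4e-06). A run of 4 on chromosome 3 held the calcium-binding genes S100a1, S100a13, S100a4 and S100a6, of which S100a4 stood at 528, 741 and 768 FPKM in NC and 8.15, 77.9 and 168 in COM (log2 fold change -4.002 ± 0.75 (SE), adjusted p = 7.3e-04). Some of these clusters hold near-identical copies, so reads may be shared between members and a run is not as many independent changes. Other runs joined genes of different families, such as Trpm2, 1810043G02Rik, Pfkl and Dnmt3l on chromosome 10, called higher, and Bmf, Bub1b, Ankrd63 and Plcb2 on chromosome 2, called lower.

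Markers of macrophages were present in both groups and markers of the cells below the membrane almost absent. Of 11 macrophage markers 4 were called higher and 0 lower, and their summed FPKM was 11294, 13384 and 15849 in NC and 10718, 11688 and 14466 in COM (exact permutation test, p = 0.22). Most of that sum was Lyz2, at means of 11610.1 FPKM in NC and 9517 in COM. The test of the sum therefore says little of the other markers. Adgre1, which encodes F4/80, stood at 98.6, 117 and 119.8 FPKM in NC and 518, 557 and 669 in COM (log2 fold change 2.36 ± 0.11 (SE), adjusted p = 1.4e-08). Of 22 tubular markers 1 passed the filter, Cdh1, which was called lower (log2 fold change -3.14, adjusted p = 1.6e-08), and the defining Lrp2, Umod and Slc34a1 were at or near 0 in every sample, with a summed FPKM over the list of 11.01, 14.6 and 18.6 in NC and 0.564, 0.811 and 1.498 in COM. Dendritic cell markers were called higher in 4 of 9 (Bst2, Ccr7, Fscn1 and Flt3) with a sum of 77.1, 234 and 280.3 in NC and 473, 1053 and 1849 in COM, and Xcr1, Cd209a and Siglech were near 0. Of the 14 genes written in this list 6 also stand in other lists, so the sum is not one of genes particular to dendritic cells. Neutrophil markers were called higher in 2 (Lcn2 and Mmp9) and lower in 4 of 11, with Ly6g and Mpo near 0 and a sum of 557, 932 and 1083 in NC and 1243, 1553 and 1871 in COM that Lcn2 dominated in COM. The falls included S100a9 (log2 fold change -4.58, adjusted p = 1.1e-05), Ngp (log2 fold change -3.70, adjusted p = 1.2e-05) and Ltf (log2 fold change -1.67, adjusted p = 7.1e-07), against the direction of the sum. Mmp9 lost its call without NC-5 and NC-6 (log2 fold change 1.37, adjusted p = 0.15), which left 1 neutrophil marker higher and 5 lower.

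Some markers of other lineages fell as well. Stromal and endothelial markers were called lower in 6 and higher in 2 of 11, with a sum of 1408, 1487 and 1782 in NC and 482, 618 and 715 in COM that was mostly Vim, which macrophages also express. Without COM-4 to COM-6 1 was called higher. Mast cell, basophil and eosinophil markers were called lower in 6 of 7, with a sum of 73.1, 93.99 and 152 in NC and 9.25, 16.6 and 25.7 in COM, mostly the ribonuclease gene Ear6, and Cpa3, the mast cell carboxypeptidase, stood at 5.67, 9.85 and 16.2 FPKM in NC and 0, 0.218 and 0.819 in COM (log2 fold change -3.104 ± 0.24 (SE), adjusted p = 7.5e-07). None of the 13 lymphocyte markers in the table passed the filter, and their sum was 0.792, 3.34 and 3.96 in NC and 0.463, 1.04 and 1.89 in COM (exact p = 0.035, adjusted p = 0.049). The tubular, stromal and mast cell sums were lower in COM, and the dendritic cell and neutrophil sums higher. For each of these sums the exact permutation test gave p = 0.00216 (adjusted p = 0.0041). Neither of the erythroid and megakaryocyte markers tested was called. These values moved with the groups, and their part in the changes of other lists was not tested.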

How the data were processed

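Total RNA of macrophages was sequenced after Trizol extraction and a TruSeq kit. The authors deposited 1 table of FPKM values with 25926 genes for the whole series. In the processing notes of the submitters, Bowtie 0.12.2 is listed beside the builds mm9 and mm8, and the counting tool is not given in the sources used here. FPKM values hold no read depth, and their error comes only from the spread of 6 samples a group. Samples were grouped by their labels, and the 6 samples labelled COM+Met were not used. The table held no columns of the authors' own comparisons.

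The test ran on log2(FPKM + 1) for genes whose 12-sample mean reached 1 FPKM, with limma 3.58.1 in R 4.3.3 (empirical Bayes with an intensity trend, two-sided, Benjamini-Hochberg over 10900 genes). Single values per sample were compared with an exact permutation test in scipy 1.17.1. Other steps used matplotlib 3.10.9, numpy 2.4.6 and pandas 2.3.3 under Python 3.11.15. The fit was tested on simulated data of 10900 genes with 200 changed genes. Alternatives were other pseudocounts (0.1 and 5), filters, scalings (TPM, median of ratios, quantiles), sample weights, a test against 2-fold, all 18 samples, a replicate block and left-out samples.

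Named genes were the 25 largest rises and falls with groups apart, the 25 most abundant genes of each group, the 10 most abundant switched genes in each direction and, in each list, the called members with the 3 largest changes each way, with members that did not pass as a sentence needed. Srebf2, Flt3 and members of neighbour runs were named after their values were seen. The groups, gene lists and tests were chosen with earlier results of these data known. Promoters came from RefSeq on GRCm38.p6, matched by symbol, and gene order from GENCODE M21, which held 22022 of 22036 Ensembl identifiers in the table. Results on a few genes are not reported here.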

Additional observations from a re-analysis of the deposited data

Results flagged for a closer look

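Each of the genes whose values are given above, and each value per sample, was checked in both groups for a sample that stood apart from the other 5 of its group (Dixon's ratio of the gap to the range, above its 95% critical value), 248 groups of 6 in all. Chance flags about 1 in 20 groups. No explanation was tested for any of them.

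Of the 12 values found, 10 were in COM-6. In that sample Cfb stood at 765 FPKM against 1522 to 1580.5 in the other COM samples, Fth1 at 23189.8 against 29228 to 30646, Slc11a1 at 132 against 228 to 265, and Dgat2 at 13.1 against 22.5 to 27.5. Ptges stood at 39.7 FPKM against 72.2 to 80.9 and Adora2a at 17.3 against 31.5 to 38.6. COM-6 was the highest for Clec4e, at 2816 FPKM against 1687 to 1999, and for Il18, at 8.75 against 2.57 to 4.80. It held 495 genes at 100 FPKM or more against 586 to 618, and the mitochondrially encoded genes summed to 44206 FPKM against 19223 to 21877. The calls of Cfb, Slc11a1, Dgat2, Ptges, Adora2a, Clec4e and Il18 were also made without COM-6.

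Bok stood at 0.506 FPKM in COM-2 against 0 to 0.053 in the other COM samples. Tubular markers summed to 1.498 FPKM in COM-1 against 0.564 to 0.907, all far below the NC samples.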

How the results depend on the processing

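The number of genes called, 1926, was 980 with a pseudocount of 5 and 623 when tested against 2-fold. Genes called higher then numbered 417 and 265, and genes called lower 563 and 358. Genes called lower also numbered 833 with a filter of at least 5 FPKM, 834 with median-of-ratios size factors, 777 with sample weights and 818 without COM-4 to COM-6. With each sample left out in turn, 1727 to 2073 genes were called, 610 to 700 higher and 1072 to 1422 lower, and the difference in the share of the 50 most abundant genes was 3.39 to 4.66 percentage points. The replicate numbers are shared by both groups. Deviations of same-numbered samples correlated at -0.110 to -0.026, inside the range of -0.148 to 0.141 of samples with other numbers. The labels do not say whether same-numbered samples share a mouse or culture, and these correlations cannot decide it. With a replicate block 1920 genes were called, 649 higher and 1271 lower. The log2 fold change changed sign for Ftl1 (0.030 without NC-5, NC-6 and COM-6), for Lyz2 (0.025), mt-Co1 (0.29), Psap (0.089) and Ctsd (0.10) with size factors, for Ctsd (0.070) without NC-5, NC-6 and COM-6, and for mt-Co1 without 1 of COM-2 to COM-5 (0.0097 to 0.048, among them 0.015 and 0.030, but -0.23 without COM-6). It did so for Gpnmb (-0.26 with sample weights, -0.053 without COM-4 to COM-6 and -0.0057 without NC-5, NC-6 and COM-6) and for Cd74 (0.092 without COM-4 to COM-6). Tnf reached -0.72 with sample weights, -0.11 without NC-5 and NC-6, -0.037 without COM-4 to COM-6 and -0.18 without NC-5, NC-6 and COM-6. None of these genes was called with all samples, but Cd74 was called lower without NC-5 and NC-6 (-1.73) and without NC-5, NC-6 and COM-6 (-1.60). Of 7382 values of 275 genes under the alternatives, 7077 kept direction and call, 262 lost the call, 25 gained it and 18 changed sign. Of 2376 counts of called list members, 1975 stayed within 1.5 times. The causes were not tested, and FPKM values set no limit from depth.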
